A study of Mus musculus with 5 samples.

Results

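The core circadian clock genes are 10 of the 51912 genes listed in each deposited table of the series: Clock, Arntl (also called Bmal1), Per1, Per2, Per3, Cry1, Cry2, Nr1d1, Nr1d2 and Dbp. They were chosen by symbol, and all 10 passed the filter on low counts that left 18590 genes for testing. RNA was taken from dorsolateral prostate. The mice were males aged 3 months and were all Ghrflox/flox, so that the growth hormone receptor gene Ghr carried alleles that Cre recombinase can delete. The 3 controls had no Cre allele listed, and the 2 mice labelled Ghr deletion were Ghrflox/flox;ROSA26Cre-ERT2+/0, with a tamoxifen-activated Cre inserted at the broadly expressed ROSA26 locus. Every mouse received tamoxifen at 250 mg/kg on each of 5 days, and tissue was collected 1 month after the last injection. Mice were kept with 12 hours of light a day, and the labels do not state the hour at which tissue was taken.

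The mammalian clock is a loop of transcription factors. The proteins of Clock and Arntl pair up, bind E-box elements and switch on the Per, Cry and Nr1d genes and Dbp. The PER and CRY proteins then block that pair, and the NR1D proteins (REV-ERB alpha and beta) repress Arntl, so that Arntl RNA peaks at the opposite time of day from Dbp, Nr1d1 and Per3. In peripheral organs the loop runs in most cell types and sets daily rhythms of metabolism and secretion, and the relation of Arntl to its targets within a sample depends on the hour of collection.

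Short stretches of DNA in front of these genes carry the loop. RefSeq promoters (build GRCm38.p6) were found for 9 of the 10 genes, in 13 windows, and the 250 bases before each start were searched on both strands for the E-box CACGTG, the related E-prime box CACGTT, the D-box TTATGTAA or TTACGTAA, the cyclic AMP element TGACGTCA and the ROR and REV-ERB element called RORE. Over all 32851 mouse promoter windows, of 27025 genes, the shares were taken by gene, with a match in any window of the gene. They were 6.86% for CACGTG, 4.5% for CACGTT, 0.98% for TTATGTAA, 0.12% for TTACGTAA, 1.77% for TGACGTCA and 0.4% for the RORE. Among the clock genes CACGTG was present before Per1 and Cry1, CACGTT before Cry1, Cry2 and Nr1d1, and TTATGTAA at 2 positions before Per3. The windows of Arntl, Clock, Nr1d2 and Dbp held no match to any of these elements. TTACGTAA, TGACGTCA and the RORE were not found before any of the 9 genes. Only the 250 bases before each listed start were searched. Elements at or past a start, across it or farther upstream lay outside that window. An absent match therefore does not show that a gene lacks the element, for Arntl and Dbp as for the others. The 4 stretches below belong to the genes whose levels varied most between libraries (Per1 and Per3) and to those whose groups did not overlap (Cry1 and Nr1d1). The stretches leave out bases of annotated exons. Capitals mark the matches, which do not overlap each other, and a match on the other strand reads AACGTG. Per1 lies at chr11:69098699-69098947 on the plus strand, Per3 at chr4:151044666-151044915 on the minus strand, Cry1 at chr10:85185065-85185304 on the minus strand and Nr1d1 at chr11:98775378-98775627 on the minus strand.
Per1: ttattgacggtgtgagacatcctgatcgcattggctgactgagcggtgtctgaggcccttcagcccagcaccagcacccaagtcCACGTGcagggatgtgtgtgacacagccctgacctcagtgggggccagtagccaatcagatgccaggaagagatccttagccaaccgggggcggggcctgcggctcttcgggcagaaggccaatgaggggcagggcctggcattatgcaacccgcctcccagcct
Per3: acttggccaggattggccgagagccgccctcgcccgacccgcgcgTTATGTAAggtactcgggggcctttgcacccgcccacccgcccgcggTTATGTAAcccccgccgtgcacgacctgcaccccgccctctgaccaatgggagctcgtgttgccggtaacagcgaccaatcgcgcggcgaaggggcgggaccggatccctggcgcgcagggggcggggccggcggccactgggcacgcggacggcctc
Cry1: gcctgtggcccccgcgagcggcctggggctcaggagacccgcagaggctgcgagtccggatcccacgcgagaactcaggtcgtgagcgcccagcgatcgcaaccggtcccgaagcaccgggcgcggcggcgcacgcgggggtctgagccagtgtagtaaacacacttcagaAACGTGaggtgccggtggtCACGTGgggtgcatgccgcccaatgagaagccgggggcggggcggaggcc
Nr1d1: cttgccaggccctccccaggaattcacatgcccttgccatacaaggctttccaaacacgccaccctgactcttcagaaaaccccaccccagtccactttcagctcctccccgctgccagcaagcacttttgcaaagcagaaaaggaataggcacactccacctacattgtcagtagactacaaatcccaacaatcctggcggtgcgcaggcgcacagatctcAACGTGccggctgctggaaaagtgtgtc
The E-box of Per1 lies 166 to 161 bases before the start at 69098949, and the Per1 window for the start at 69100152 held no match. The E-box of Cry1 lies 60 to 55 bases before its start. The E-prime boxes lie 79 to 74 bases before the start of Cry1 and 28 to 23 bases before that of Nr1d1. The D-boxes of Per3 lie 205 to 198 and 158 to 151 bases before its start. These matches describe the sequence, and no binding was measured.

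Libraries held between 19517832 and 41553545 counts, and abundances are given as CPM, counts scaled to a common total by the TMM-scaled library size, control replicates 1 to 3 before deletion replicates 1 and 2. Ghr, summed over the whole gene, was not lower in the deletion-labelled libraries (10.1, 11.8 and 13.2 against 21.5 and 10.2 CPM, adjusted p = 0.874 by edgeR), and every direction below is that of the labels. A count over the whole gene can include exons that the deletion leaves in place. The epithelial markers Epcam, Krt8 and Krt18 were present in all 5 libraries, but the prostate secretory gene Pbsn (probasin) had 11.1, 475, 0.816, 0.0454 and 8.76 CPM and Tgm4 had 17.9, 1604, 2.93, 0.749 and 162 CPM. Another secretory gene, Msmb, was at 0 in deletion replicate 1. Control replicate 2 stood apart, with 4 of 8 luminal prostate markers at their highest and 2, Epcam and Krt18, at their lowest, beside 32.9% and 33.5% of all genes tested. It also had all 5 smooth muscle and 4 of 5 fibroblast markers at their lowest. Of 8 seminal vesicle secretion genes, 6 were higher in control replicates 1 and 2 than in the other 3 libraries. The sum of the 8 ran from 234410 to 451760 CPM in controls and from 105000 to 183270 CPM in the deletion-labelled libraries.

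No core clock gene passed the test between the groups. By edgeR's quasi-likelihood test, 0 of 10 rose and 0 of 10 fell at an adjusted p under 0.05, where 0% of all genes tested were called in either direction. At an unadjusted p under 0.05 the count was 0 of 10, beside 4.26% of all genes, which split into 1.16% higher and 3.1% lower. DESeq2 called 0 of 10, beside 0.436% of all genes, and limma-voom called 0 of 10, beside 0%. The median log2 fold change of the members was -0.06 and their median size was 0.29, beside -0.01 and 0.30 over all genes tested. The highest library exceeded the lowest by a median of 1.94-fold over the 10 genes and 1.95-fold over all genes. In 8 of 10 genes the highest control exceeded the lowest by more than the groups differed, and Arntl and Nr1d1 were the exceptions. The labels call the samples biological replicates, and these are whole-tissue libraries in which fewer cells of a type and less RNA per cell cannot be told apart.

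**Figure D1:**
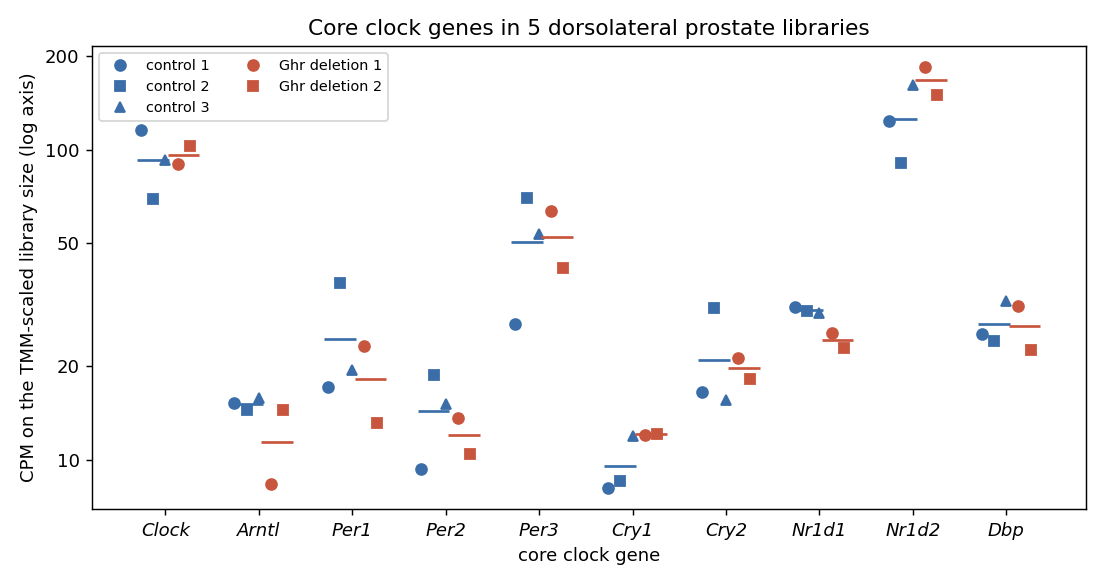
Abundance of the 10 core clock genes in each of the 5 libraries, in CPM on the TMM-scaled library size on a log axis, with blue points for controls, red points for deletion-labelled libraries and bars for group means. The Per genes and Cry2 are spread widely among controls, while Nr1d1 lies between 29.7 and 31.0 CPM in controls and at 25.7 and 22.9 CPM in the other group.

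The activators come first. Clock (ENSMUSG00000029238, GRCm38 chromosome 5, 76209868 to 76304792), the DNA-binding partner whose RNA is nearly flat over the day in most tissues, had 116, 69.6 and 92.3 CPM in controls against 89.7 and 103 CPM in the deletion-labelled libraries. The groups overlapped, with both deletion-labelled libraries between the lowest and the highest control. The log2 fold change was 0.06 (SE 0.26, 95% confidence interval -0.60 to 0.71, adjusted p = 0.965 by edgeR).

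Arntl (ENSMUSG00000055116, chromosome 7, 113207465 to 113314126) encodes BMAL1, the partner without which the clock stops. It had 15.2, 14.4 and 15.8 CPM in controls, or 15.1 ± 0.678 CPM (SD, n = 3), and 8.35 and 14.5 CPM in the deletion-labelled libraries. Deletion replicate 1 was low and replicate 2 lay among the controls, which differed among themselves by only 1.09-fold. The counting interval of the low library, 7.52 to 9.25 CPM from 368 counts, lay below those of the other 4 libraries, which began at 12.8 CPM or above (exact Poisson, 95%, counting error only). The log2 fold change was -0.41 (SE 0.28, 95% confidence interval -1.11 to 0.29, adjusted p = 0.874 by edgeR). It was -0.07 without deletion replicate 1 and -0.86 without deletion replicate 2, so its size rested on a single library. That library also had the highest level of 5 of 6 adipocyte, 4 of 5 fibroblast and 3 of 4 endothelial markers, beside 18.7% of all genes tested. It had the lowest level of 5 of 8 seminal vesicle genes, beside 19.2% of all genes. Of 8 luminal prostate markers, 4 were at their lowest there and 2 at their highest. The adipocyte sum was 15.2 CPM there, 4.82 CPM in deletion replicate 2 and 1.18 to 2.36 CPM in controls, and the fibroblast sum was 1863, 814 and 524 to 1329 CPM in the same order. In at least 1 library 4 of the 6 adipocyte markers were at 0. The part of these cell types in the Arntl value was not tested.

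The Period genes encode the repressor proteins that accumulate in the evening and pair with CRY. Per1 (ENSMUSG00000020893, chromosome 11, 69095217 to 69109960), which also responds quickly to hormones and cyclic AMP, had 17.1, 37.2 and 19.4 CPM in controls against 23.3 and 13.1 CPM in the deletion-labelled libraries. Per2 (ENSMUSG00000055866, chromosome 1, 91415982 to 91459324) had 9.32, 18.7 and 15.1 CPM against 13.6 and 10.4 CPM. Per3 (ENSMUSG00000028957, chromosome 4, 151003652 to 151044665), which is dispensable for the rhythm itself, had 27.4, 70.0 and 53.3 CPM against 63.4 and 41.4 CPM. All 3 were highest in control replicate 2 and all 3 were lower in deletion replicate 2 than in replicate 1, and the groups overlapped in each. Among controls they spanned 2.18-fold for Per1, 2.01-fold for Per2 and 2.55-fold for Per3, while the groups differed by 1.35-fold, 1.20-fold and 1.04-fold. Per1 had the widest spread of the 10 genes over the 5 libraries, 2.83-fold.

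The log2 fold change of Per1 was -0.43 (SE 0.44, 95% confidence interval -1.50 to 0.64, adjusted p = 0.877 by edgeR). It was -0.01 without control replicate 2, -0.07 without deletion replicate 2 and -0.91 without deletion replicate 1. That of Per2 was -0.26 (SE 0.34, adjusted p = 0.890) and that of Per3 was 0.06 (SE 0.42, adjusted p = 0.978), both by edgeR. The sign for Per3 turned without control replicate 1 (-0.24) or without deletion replicate 1 (-0.29). For Per2 the value was -0.03 without control replicate 2, -0.08 without deletion replicate 2 and -0.49 without control replicate 1.

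The cryptochromes Cry1 and Cry2 encode the strongest repressors of the CLOCK and BMAL1 pair. Cry1 (ENSMUSG00000020038, chromosome 10, 85131700 to 85185064), whose RNA peaks later in the cycle than the Per genes, had 8.09, 8.53 and 11.9 CPM in controls against 12.0 and 12.1 CPM in the deletion-labelled libraries. Both of the latter were above every control, but control replicate 3 was so close that the counting intervals of the 3 libraries overlapped (10.9 to 13.0, 11.0 to 13.1 and 11.1 to 13.2 CPM). The log2 fold change was 0.34 (SE 0.25, 95% confidence interval -0.28 to 0.96, adjusted p = 0.874 by edgeR), and it was 0.02 with control replicates 1 and 2 left out. The deposited effective length of Cry1, a mean over its transcripts weighted by their estimated abundance, was 1705, 2837 and 1781 bases in controls and 2549 and 2634 bases in the other group. With these lengths as offsets the log2 fold change was -0.05, the opposite sign, so the direction for Cry1 depends on whether length is adjusted for.

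Cry2 (ENSMUSG00000068742, chromosome 2, 92403646 to 92434043) had 16.5, 30.9 and 15.6 CPM in controls against 21.2 and 18.2 CPM in the deletion-labelled libraries. Control replicate 2 was high, as for the Per genes, and the groups overlapped. The log2 fold change was -0.09 (SE 0.35, adjusted p = 0.958 by edgeR), and it was 0.29 without control replicate 2 and 0.02 without deletion replicate 2. The ratio of Cry2 to Cry1 in TPM (an abundance adjusted for transcript length, so that genes can be compared within a library) was 1.13, 3.33 and 0.725 in controls against 1.46 and 1.33 in the other group. Control replicate 2 again had the extreme value. In that library 4 of 10 core clock genes reached their highest level, namely Per1, Per2, Per3 and Cry2, beside 32.9% of all genes tested. Its luminal prostate and stromal markers also stood apart, as given above, and their part in these values was not tested.

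**Figure D2:**
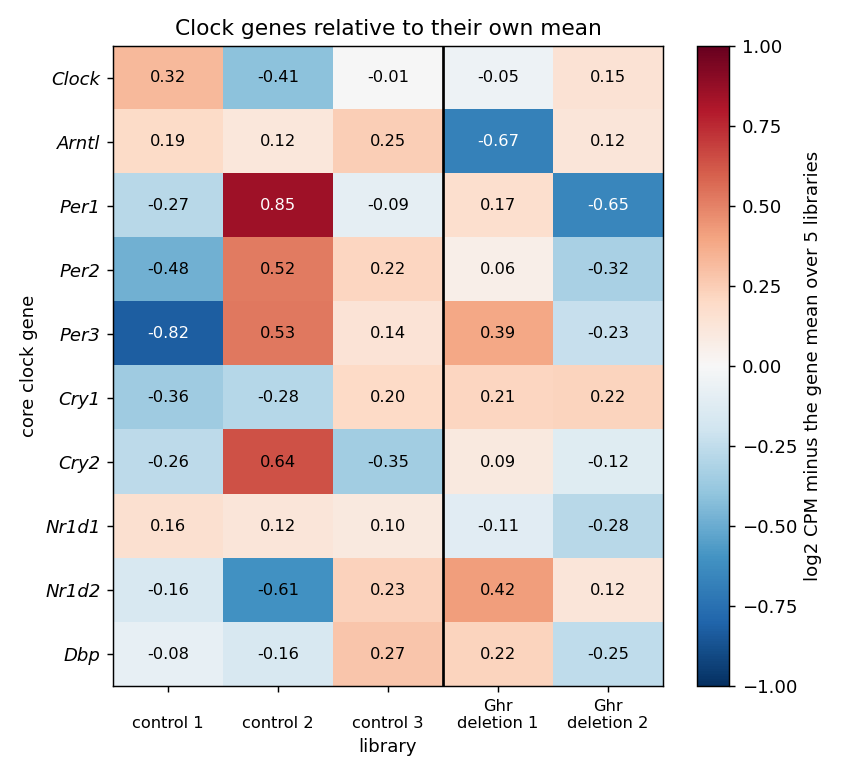
Log2 CPM of each core clock gene minus its own mean over the 5 libraries, with controls left of the black line and deletion-labelled libraries right of it. Control replicate 2 shows Per1 at 0.85 and Nr1d2 at -0.61, control replicate 1 shows Per3 at -0.82, and deletion replicate 1 shows Arntl at -0.67.

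The nuclear receptors of the second loop had fold changes of opposite sign, neither of which passed the test. Nr1d1 (ENSMUSG00000020889, chromosome 11, 98767932 to 98775333), which encodes REV-ERB alpha, had 31.0, 30.2 and 29.7 CPM in controls, or 30.3 ± 0.677 CPM (SD, n = 3), and 25.7 and 22.9 CPM in the deletion-labelled libraries. Both of the latter lay below every control, and this gene had the narrowest control range of the 10, 1.05-fold. Its log2 fold change was -0.32 (SE 0.18, 95% confidence interval -0.75 to 0.12), with an unadjusted p of 0.122 and an adjusted p of 0.874 by edgeR. It stayed between -0.41 and -0.24 with each library left out in turn, and on log2(TPM + 1) it was 0.09 relative to the all-gene median.

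Nr1d2 (ENSMUSG00000021775, chromosome 14, 18204054 to 18239127), which encodes the related repressor REV-ERB beta, had 124, 90.7 and 162 CPM in controls against 185 and 150 CPM in the deletion-labelled libraries. The groups overlapped, and control replicate 3 lay between the libraries of the other group. Between groups the log2 fold change was 0.42 (SE 0.30, 95% confidence interval -0.31 to 1.15, adjusted p = 0.874 by edgeR), and it was 0.05 with control replicates 1 and 2 left out. Within each library the ratio of Nr1d2 to Nr1d1 in TPM was 2.06, 1.71 and 2.88 in controls against 4.01 and 3.60 in the deletion-labelled libraries. Both of the latter ratios were above every control. This pair was chosen after its values were seen, and the ratio is a description without a test.

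Reads of Nr1d1 and Dbp can be shared with genes on the opposite strand. Exons of Nr1d1 overlap those of Thra, a thyroid hormone receptor gene, over 263 of 3077 bases (8.5%), and exons of Dbp overlap those of Sphk2, a sphingosine kinase gene, over 539 of 2993 bases (18.0%). The expected counts were not whole numbers in 4 of 5 libraries for Nr1d1 and in 5 of 5 for Dbp, and the same held for Thra and Sphk2. Cry2 overlaps the noncoding gene D930015M05Rik over 4.7% of its exon bases and had such a count in 1 of 5 libraries, while the other 7 members had whole counts in all 5. The library kit was stranded, but no source used here states the strand setting of the counting, so Nr1d1 and Dbp values are uncertain to that extent. Thra had 21.8, 29.8 and 29.1 against 23.3 and 28.5 CPM, and Sphk2 had 14.5, 34.0 and 22.1 against 13.5 and 14.1 CPM. Nr1d2 matches the processed pseudogene AC170187.1 at 96.1% over 1385 bases, and that pseudogene is not among the genes listed in the files used here.

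Dbp (ENSMUSG00000059824, chromosome 7, 45705088 to 45710203) encodes a D-box activator and is a direct output of the CLOCK and BMAL1 pair, with one of the strongest daily rhythms in many organs. It had 25.4, 24.0 and 32.5 CPM in controls against 31.3 and 22.6 CPM in the deletion-labelled libraries. The groups overlapped, with deletion replicate 2 below every control and deletion replicate 1 among them, and the 5 libraries spanned 1.44-fold. The fitted log2 fold change was -0.02 (SE 0.25, 95% confidence interval -0.62 to 0.58, adjusted p = 0.986 by edgeR), and it turned to 0.12 without control replicate 3 and to 0.20 without deletion replicate 2. A value without a call does not show equal levels.

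**Figure D3:**
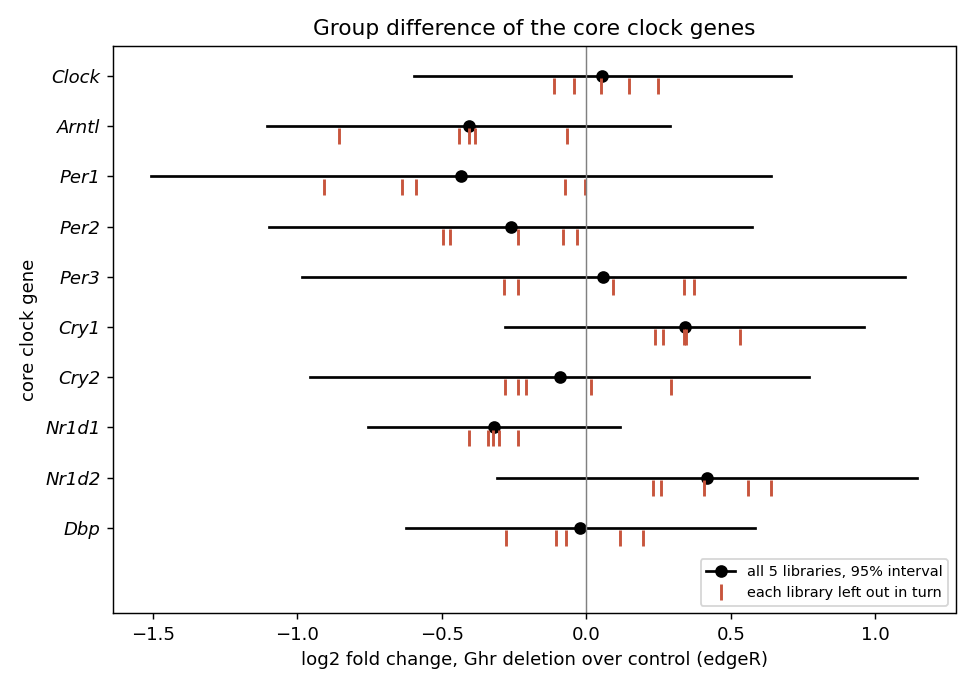
Log2 fold change of the deletion-labelled libraries over controls for each core clock gene, from edgeR's quasi-likelihood test, with the 95% confidence interval as a black line and the value with each library left out in turn as red ticks. Every interval includes 0, and the ticks fall on both sides of 0 for Clock, Per3, Cry2 and Dbp.

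Groups without overlap were about as frequent among the clock genes as among all genes. Cry1 was the only 1 of 10 members that was higher in both deletion-labelled libraries than in every control, beside 10.8% of all genes tested. Nr1d1 was the only 1 of 10 that was lower in both, beside 12.5% of all genes. With DESeq2 size factors or upper-quartile factors in place of TMM, Arntl was lower in both as well. Lower members then numbered 2 of 10, beside 12.7% of all genes with DESeq2 size factors and 10.8% with upper-quartile factors. On TPM without further scaling, 8 of 10 were higher without overlap, where 78.5% of all genes tested were. Cry1 and Nr1d2 were also lower, and Nr1d1 higher, in both control replicates 1 and 2 than in each of the other 3 libraries. That made 2 and 1 of 10 members, beside 19.2% and 17.2% of all genes. Svs1, a seminal vesicle secretion gene, showed the same division, at 32915, 22520 and 58.6 CPM in controls against 0.0454 and 7.90 CPM in the deletion-labelled libraries. The part of seminal vesicle RNA in the clock values was not tested.

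Levels of the members can be ordered within a library by TPM. Nr1d2 was the most abundant in 5 of 5 libraries and Dbp followed in 5 of 5. Clock, Nr1d1 and Per3 came next, with Clock above Nr1d1 in 4 of 5 libraries and Nr1d1 above Per3 in 4 of 5, so these neighbours were not separated in every library. Per3 was above Cry1 in 5 of 5, but in control replicate 1 it was level with Cry2 at 2.15 TPM and below Arntl at 2.21 TPM. The order among Cry1, Arntl, Per1 and Cry2 changed between libraries, with Cry1 above Arntl in 2 of 5 and Arntl above Per1 in 3 of 5. Cry2 was above Per2 in 5 of 5, and Per2 had the lowest median, 1.55 TPM, against 23.2 TPM for Nr1d2.

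The phase pattern was read from ratios within each library, which do not depend on library scaling. The ratio of Arntl to Dbp in TPM was 0.244, 0.235 and 0.198 in controls against 0.109 and 0.251 in the deletion-labelled libraries. The controls were close together, and the deletion-labelled libraries fell on either side of them, replicate 1 below and replicate 2 above. On the log2 scale the group means were -2.15 ± 0.16 (SD, n = 3) and -2.59 ± 0.849 (SD, n = 2), a difference of -0.44. Without deletion replicate 1 the difference was 0.16, and without replicate 2 it was -1.04. The ratio of Arntl to Nr1d1 was 0.370, 0.369 and 0.438 in controls against 0.274 and 0.516 in the other group, again with the deletion-labelled libraries on either side of all controls.

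The ratio of Arntl to Per3 was 1.03, 0.397 and 0.561 in controls against 0.258 and 0.663 in the deletion-labelled libraries. Here the controls were themselves far apart, with control replicate 1 high and control replicate 2 low, and deletion replicate 1 was again the lowest library. In all 3 ratios deletion replicate 1 had the lowest value of the 5 libraries, and in CPM its Arntl level was also the lowest. Of the genes set against Arntl, Dbp and Per3 were each second highest of the 5 in that library in CPM, while Nr1d1 was second lowest. In TPM without further scaling, Dbp (32.9), Per3 (13.9) and Nr1d1 (13.1) were each highest of the 5 in that library. Arntl in TPM was 3.59 there, below only deletion replicate 2 at 4.63. No test is given for these ratios, and in each of the 3 the deletion-labelled libraries differed from each other by more than the group means did.

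**Figure D4:**
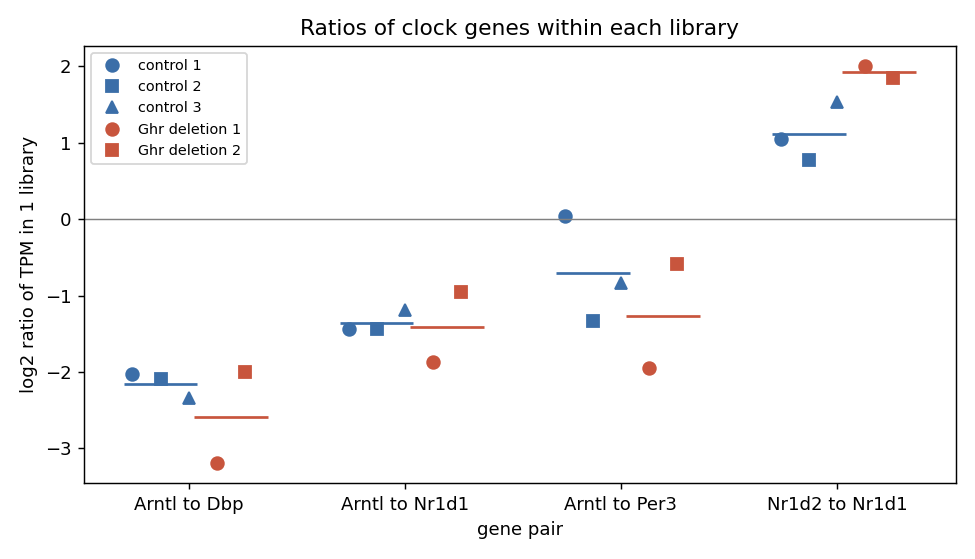
Log2 ratios of TPM for 4 pairs of clock genes within each library, with blue points for controls, red points for deletion-labelled libraries and bars for group means. Deletion replicate 1 is lowest in the 3 ratios with Arntl, at -3.20 for Arntl to Dbp, and deletion replicate 2 lies within or above the range of controls. The ratio of Nr1d2 to Nr1d1 is above every control in both deletion-labelled libraries.

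The other 27 genes of the clock pathway were examined in 3 lists. None was called by edgeR (0 rose and 0 fell at an adjusted p under 0.05, beside 0% of all genes), DESeq2 called 0 and limma-voom called 0. At an unadjusted p under 0.05 the count was 1 of 27, the gene Rorb, beside 4.26% of all genes. Of the 27, 18 had positive and 9 negative log2 fold changes, with a median of 0.07 beside -0.01 over all genes. Groups did not overlap for 2 higher genes (Hlf and Wee1) and 2 lower genes (Rorb and Csnk1d) of the 27. Over all genes tested these shares were 10.8% and 12.5%. Of 11 other transcription factors, 7 had positive and 4 negative values, with a median of 0.17. Rorb, a ROR-family receptor known mainly from nervous tissue and retina, had 58.6, 38.6 and 14.5 CPM in controls against 13.8 and 13.5 CPM in the deletion-labelled libraries (edgeR log2 fold change -1.45 with SE 0.57, adjusted p = 0.874). Nfil3, a D-box repressor, had 3.58, 4.37 and 1.01 against 1.27 and 1.11 CPM. For both, control replicate 3 sat beside the deletion-labelled libraries and far from control replicates 1 and 2, which is the division seen in Svs1. With control replicates 1 and 2 left out, the log2 fold change was -0.08 for Rorb and 0.23 for Nfil3.

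Hlf, a D-box activator of the same family as Dbp, had 29.6, 24.9 and 39.0 CPM in controls against 45.5 and 40.5 CPM in the deletion-labelled libraries (edgeR log2 fold change 0.46 with SE 0.24, adjusted p = 0.874). Both were above every control, with control replicate 3 close below. Rora, an activator that competes with the NR1D proteins at Arntl, had 52.5, 38.0 and 67.7 against 77.9 and 60.0 CPM, with overlap. Tef, the third D-box activator, had 101, 131 and 120 against 132 and 111 CPM, and Npas2, which can stand in for Clock, had 3.89, 3.08 and 5.16 against 2.95 and 4.77 CPM. Tef and Npas2 are named here beyond the rule, after their values were seen. Like Arntl, Npas2 was lowest in deletion replicate 1.

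**Figure D5:**
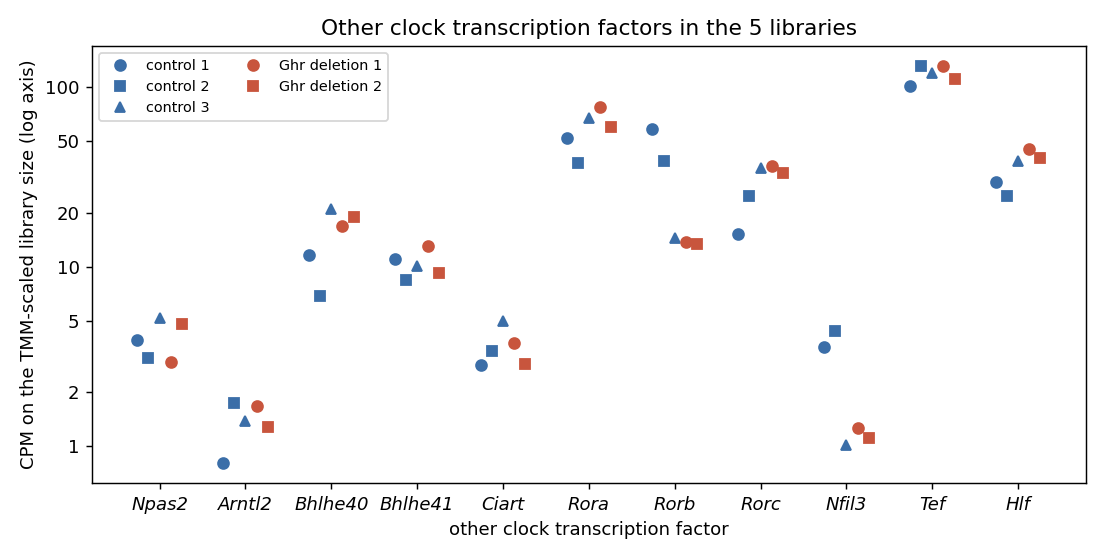
Abundance of 11 other clock transcription factors in the 5 libraries, in CPM on the TMM-scaled library size on a log axis, with blue points for controls and red points for deletion-labelled libraries. Rorb and Nfil3 separate control replicates 1 and 2 from the other 3 libraries, and most other factors overlap between groups.

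Genes that modify or degrade clock proteins form the second list. Of its 10 members, 6 had positive and 4 negative log2 fold changes, with a median of 0.06. The highest library exceeded the lowest by a median of 1.44-fold. Csnk1d, the casein kinase that marks PER proteins for breakdown, had 91.4, 96.3 and 99.2 CPM in controls against 84.8 and 85.2 CPM in the deletion-labelled libraries (edgeR log2 fold change -0.17 with SE 0.18, adjusted p = 0.877). Its groups did not overlap, but with effective lengths as offsets the value was 0.09. Gsk3b, a kinase that acts on several clock proteins, had 88.3, 80.4 and 79.0 against 108 and 83.5 CPM, and Fbxl21, a ubiquitin ligase subunit, was low at 0.988, 0.206 and 0.441 against 0.930 and 0.732 CPM.

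Among 6 genes that follow the clock in many organs, 5 had positive and 1 negative log2 fold changes. Wee1, a cell cycle kinase driven through E-boxes, had 15.9, 17.1 and 22.0 CPM in controls against 25.2 and 22.3 CPM in the deletion-labelled libraries (edgeR log2 fold change 0.37 with SE 0.22, adjusted p = 0.874). Its groups did not overlap, with control replicate 3 close below the deletion-labelled libraries. Por, the electron donor of cytochrome P450 enzymes, had 36.0, 41.7 and 34.9 against 36.3 and 28.0 CPM. Tspan4 had 4.88, 5.60 and 8.49 against 8.08 and 7.19 CPM, and Tsc22d3, a glucocorticoid-induced gene, had 63.5, 41.8 and 70.4 against 83.6 and 49.6 CPM. The groups overlapped for Por, Tspan4 and Tsc22d3.

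The genes most like Dbp in their pattern over the 5 libraries were found by the root mean square difference of centred log2 CPM, among 11985 genes. They were Tceanc2 (0.028), Palb2 (0.052), Cdca4 (0.067), S100a16 (0.068) and Arsk (0.068), where the median over all compared genes was 0.341. Core clock genes were left out of the 11985 genes and compared separately. The nearest member to Dbp was Nr1d1, at 0.237, farther than the genes named but nearer than that median. For Arntl the nearest were Dll1 (0.103), Mum1l1 (0.109), Frat1 (0.117), Rnasek (0.119) and Cmtm8 (0.122), with a median of 0.450 over all compared genes and 0.315 for Nr1d1, the nearest member. These values describe likeness over 5 libraries and nothing more.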

How the data were processed

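Dorsolateral prostate RNA was sequenced from a stranded kit for total RNA, per the labels' protocols. Software named in the submitters' processing notes comprises RSEM 1.3.0, STAR 2.5.3a and bcl2fastq 2.20.422, and the genome build named there is GRCm38. Neither the annotation release nor the strand setting is stated in the labels or headers. Each sample has 1 RSEM gene table, deposited by the authors, with expected counts (reads matching several genes are divided between them by a model), TPM and effective lengths, per the file headers. Sample titles gave the group and replicate number.

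Rounded expected counts were filtered by filterByExpr, TMM-scaled and tested by quasi-likelihood in edgeR 4.0.16 (R 4.3.3), and p-values were adjusted by Benjamini-Hochberg over 18590 genes, with a threshold of 0.05. Standard errors were derived from each fold change and its F statistic. The step was tried on simulated counts of 18320 genes, where it made 6 false calls. Where the simulated difference was 2-fold, it found only 2 of 50 genes. For 4-fold differences it found 30 of 50, and for 8-fold differences 48 of 50. Per1 had the largest group difference of the core clock genes, 1.35-fold, which is below the smallest simulated difference. The absence of calls among these genes therefore does not show that their levels were unchanged. An exact test of 3 against 2 samples cannot go below a two-sided p of 0.2, so p-values come from the model. Alternatives used other scalings and filters, DESeq2 1.42.0, limma 3.58.1, TPM, effective lengths as offsets, protein-coding genes, omitted libraries and a replicate block. Symbols were matched for 99.5% of identifiers, and GENCODE release M21 on GRCm38 gave positions. Near-identical transcripts were sought with BLAST 2.17.0.

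The members and gene lists were chosen with earlier results of these data known. All 10 members were named, as were the 4 smallest-p genes of each other clock list, Tsc22d3, Fkbp5, Fos and Egr1, except that 1 gene of these lists is not reported here. Also named were the 5 genes most like Dbp and the 5 most like Arntl in pattern, from genes averaging 1 or more in log2 CPM. Core clock genes, predicted genes and pseudogenes were left out of that search.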

Additional observations from a re-analysis of the deposited data

How the results depend on the processing

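The count of core clock genes called was 0 under all 20 alternatives, with the smallest adjusted p, 0.0851, for Nr1d2 on log2(TPM + 1) with limma-trend. Of 200 alternative values for the members, 179 kept their direction, 21 turned and 0 crossed the threshold. Library size only moved the median of all genes by 0.58, log2(TPM + 1) by 0.87 and log2(TPM + 0.1) by 1.33, and values under these are given relative to that shift. The p-values under these settings, that of Nr1d2 among them, come from tests of the unshifted values against 0. For these libraries the depth left 131 counts for Cry1 in control replicate 1, the fewest of any member.

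Of the other clock genes, 1 was called with the replicate block (Rorb, log2 fold change -1.80, adjusted p = 0.00334 by edgeR) and 2 on log2(TPM + 1) (Arntl2 and Fbxl21). Those 2 were called in the higher direction, with unshifted log2 fold changes of 0.67 and 0.45 tested against 0. Both values lie below the median of 0.87 over all genes, so the calls do not show a change relative to that median. The replicate numbers pair samples only by number. Deviations of same-numbered libraries correlated at 0.281 and 0.296 over genes, and with 2 pairs this is no evidence of pairing. The block raised calls over all genes from 0 to 552 higher and 574 lower, and called 0 core clock genes. Over all genes, DESeq2 called 20 higher and 61 lower, no filter on low counts 2 and 0, and leaving out control replicate 3 gave 15 and 33, log2(TPM + 1) 2234 and 60 and log2(TPM + 0.1) 686 and 47.

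Non-overlapping members numbered 2 in the main comparison, 4 with library size only, 8 on TPM, 6 with control replicates 1 and 2 left out, and 3 to 5 with each library left out in turn. Over all genes, the shares without overlap were 46.8% higher and 1.61% lower with library size only, 32.8% and 31.8% with control replicates 1 and 2 left out, and 17.1% to 23.7% higher and 17.8% to 23.2% lower with each library left out in turn. The Arntl to Dbp difference ran from -1.04 to 0.16 with each library left out.

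Directions turned as follows, and the cause was not tested. With each library left out in turn, the range was -0.11 to 0.25 for Clock, -0.29 to 0.37 for Per3, -0.28 to 0.29 for Cry2, -0.28 to 0.20 for Dbp, -0.23 to 0.60 for Egr1, -0.19 to 0.60 for Fkbp5, -0.24 to 0.51 for Tsc22d3 and -0.20 to 0.88 for Ghr. With control replicates 1 and 2 left out, values were -0.021 for Per3, 0.34 for Cry2, -0.62 for Fkbp5, 1.02 for Fos, 0.23 for Nfil3, -0.073 for Tsc22d3 and -0.15 for Tspan4. With effective lengths as offsets they were -0.051 for Cry1, 0.030 for Dbp and 0.093 for Csnk1d. On log2(TPM + 1) they were 0.31 for Cry2, 0.094 for Nr1d1, 0.51 for Dbp, 0.61 for Csnk1d, -0.010 for Egr1, -0.42 for Fbxl21 and 0.37 for Por. On log2(TPM + 0.1) they were 0.13 for Cry2, 0.16 for Dbp, 0.23 for Csnk1d and 0.0027 for Por. Library size only gave 0.012 for Cry2 and -0.045 for Fkbp5. Dbp was 0.0063 with upper-quartile factors, 0.010 with no filter on low counts and 0.11 with the replicate block.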

Other observations

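Glucocorticoids and immediate early signals are known to induce Per1, and their marker genes were also examined. Fkbp5, a glucocorticoid-induced chaperone partner, had 93.4, 70.8 and 193 CPM in controls against 118 and 133 CPM in the deletion-labelled libraries (edgeR log2 fold change 0.07 with SE 0.45, adjusted p = 0.973). Of 6 glucocorticoid target genes 0 passed the test. Fos, an immediate early gene, had 3.21, 3.29 and 0.662 CPM against 1.52 and 1.16 CPM, and Egr1 had 5.12, 5.50 and 4.79 CPM against 4.38 and 7.80 CPM. Of 8 tested immediate early genes 0 passed. In control replicate 2, where Per1 was highest, 2 of the 6 glucocorticoid targets were at their highest and 4, Fkbp5 among them, at their lowest. Of the 9 immediate early genes listed, 5, Fos among them, were at their highest in that library and 2 at their lowest. These counts stand beside 32.9% and 33.5% of all genes tested. Junb had 9.20 CPM there, against 2.28 and 2.10 CPM in control replicates 1 and 3 and 1.38 and 1.59 CPM in the deletion-labelled libraries. Fos was alike in control replicates 1 and 2, and Egr1 was highest in deletion replicate 2. The part of these signals in the Per1 value was not tested.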
